A study of Mus musculus with 6 samples.

Results

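Collagen genes encode the α chains of a family of extracellular matrix proteins, and their transcripts were measured here in the livers of mice injected with tumour cell vesicles. A gene was counted as a collagen when its name on the array was Col, a number, the letter a and a number. By this rule 44 genes of 37074 gene names on the array were collagens, measured by 91 of 56605 probes. They were grouped by the type of matrix that their proteins build: 11 encode fibrillar chains (types I, II, III, V, XI, XXIV and XXVII), 8 encode basement membrane chains (types IV, XV and XVIII) and 25 encode the other types.

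The 2 groups were sEV livers and Control livers, both taken from nude mice, which have no functional thymus and so few mature T cells. sEV mice received small extracellular vesicles, tiny membrane-bound bodies shed by cells, collected from SW620, a line of human colorectal cancer cells. A dose of 20 µg of vesicles was given into the tail vein 10 times over 21 days, while Control mice were given sterile PBS, a buffered saline, equally often. Each group had 5 mice, and 3 livers of each, numbered 1 to 3, were hybridised to 1 Agilent 1-colour array per liver. The sEV mice arrayed were picked at random, and the labels give no age, sex or nude allele. The series reports matrix remodelling from these same arrays, so the direction of the collagen genes is not independent evidence of it.

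Collagen α chains wind around each other into a triple helix in the endoplasmic reticulum, where prolyl and lysyl hydroxylases modify them and chaperones hold them in shape. Fibrillar collagens are secreted as procollagens, trimmed at their ends by proteases, assembled into fibrils and cross-linked by lysyl oxidases, whereas type IV collagen forms the sheet-like network of basement membranes. In liver, hepatic stellate cells and portal fibroblasts are known as the main sources of fibrillar collagens. Stellate and endothelial cells contribute type IV chains, and hepatocytes are a known source of type XVIII.

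Fewer than all collagens could be measured in this tissue. A probe entered the tests when its spot was well above background, the scanner software's call of a signal over its surroundings, on at least 3 of the 6 arrays, and the brightest such probe stood for its gene. Of the 44 collagen genes, 26 were tested, made up of 8 fibrillar, 4 basement membrane and 14 other types. Among the other 18 genes, 13 were not well above background on any array: Col4a3, Col4a6, Col6a4, Col6a6, Col9a1, Col9a3, Col10a1, Col11a1, Col15a1, Col19a1, Col23a1, Col24a1 and Col28a1. The other 5 had no probe well above background on more than 1 array. That was a Control array for Col4a4, Col8a2, Col22a1 and Col25a1, while Col11a2 had 1 probe so on an sEV array and another on a Control array. The unmeasured genes thus included chains known best from cartilage (types IX, X and XI) and the type IV chains known from kidney and other specialised basement membranes. For these 18 genes no difference between the groups was detectable at this signal.

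Between the groups, 6 collagen genes fell in sEV livers, 1 rose and 19 did not pass the test (limma over all 19446 genes tested, Benjamini-Hochberg adjusted p under 0.05). Col1a1, Col1a2, Col3a1, Col5a1 and Col5a2, which encode chains of the fibrillar types I, III and V, and Col4a1, a chain of the basement membrane type IV, made up the 6. Col5a3, another type V chain gene, was the gene that rose. As a share of collagens tested, 23.1% fell, where 8.11% of all genes tested fell, 8.82% rose and 16.9% were called in either direction. Of all called genes, 52.1% were higher in sEV livers, and this share was 40.6% when arrays were scaled to their median. The median log2 fold change of the 26 collagens, sEV minus Control, was -0.55, and that of all genes tested was 0.02. Values were negative for 17 of the 26 collagens, and 9 were positive, while 47.2% of all genes tested were negative. The livers are bulk tissue, so fewer cells of a type and less RNA per cell cannot be told apart.

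**Figure D1:**
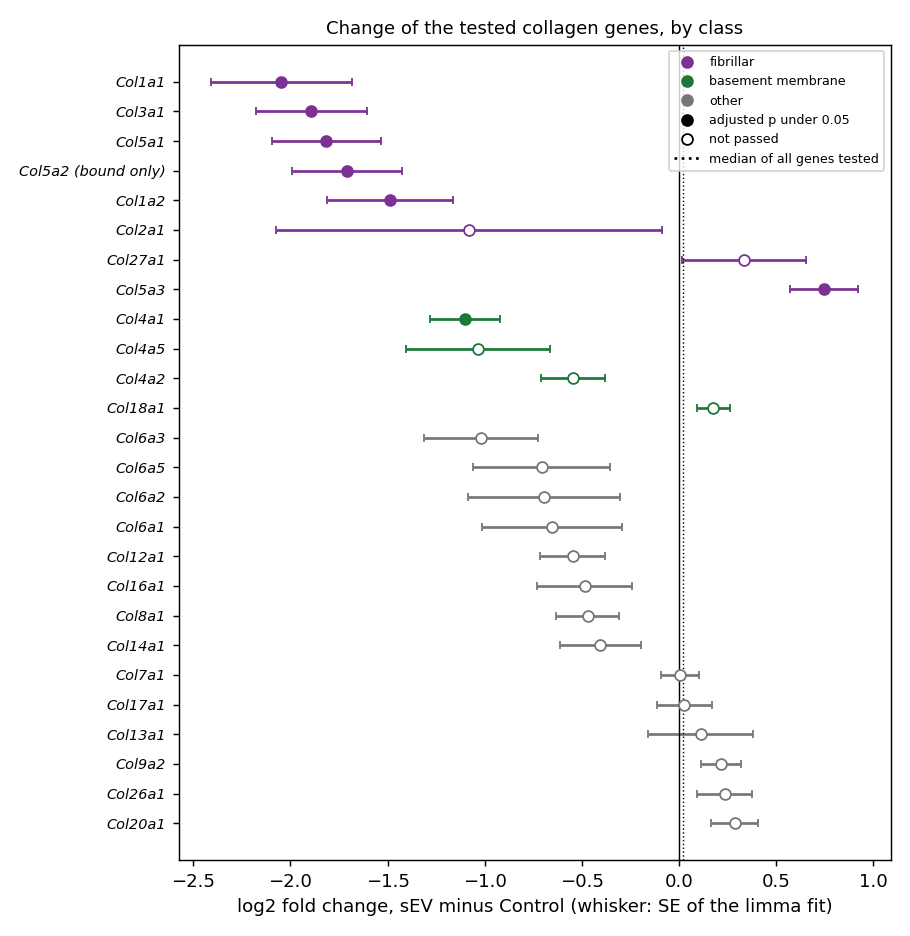
Log2 fold change of the 26 tested collagen genes (x axis, sEV minus Control, whisker the SE of the limma fit, 3 livers per group), by class and then by size from top to bottom. Filled points passed the adjusted p of 0.05, the dotted line is the median of all genes tested at 0.02, and Col5a2 has only a bound because no sEV liver had it well above background. The 5 fibrillar genes that fell lie between -2.05 and -1.49, and no gene of the other class passed.

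Fibrillar collagens made up most of the calls. Of the 8 tested, 5 fell, 1 rose and 2 did not pass, and their median log2 fold change was -1.60, or -1.28 with Col5a2 at its bound. Groups did not overlap for the 6 called genes, meaning that each sEV liver lay on the same side of each Control liver. Passing the test favours separated groups, so this is not further evidence. Over all genes tested 40.8% did not overlap. All signals that follow are log2 values relative to the array's 75th percentile, and levels of different probes are not comparable with each other.

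Type I collagen, the main fibril of scar and capsule, is a trimer of the chains encoded by Col1a1 and Col1a2. Col1a1 signals were -0.60, -1.12 and 0.00 in sEV livers 1 to 3, against 2.07, 1.03 and 1.31 in Control livers 1 to 3. Each sEV liver was below each Control liver, sEV 2 was lowest and Control 1 highest. Means were -0.58 ± 0.56 in sEV livers and 1.47 ± 0.54 in Control livers (SD, n = 3 each), a log2 fold change of -2.05 ± 0.36 (SE), or 4.13-fold lower in sEV livers (limma, adjusted p = 0.0178).

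The array holds more than 1 probe of Col1a1, and 2 of them were printed on 10 spots per array. Within an array the 10 spots of the probe used above had an SD between 0.045 and 0.074 on the log2 scale, far under the spread between livers of a group. Both of these probes overlap in the genome at chr11:94813075-94813134 and chr11:94813115-94813174 (mm9, plus strand), and the 20 bases they share are in capitals here, as the last 30 bases of the first and the first 30 bases of the second, to show that they are not independent measurements.
Col1a1, probe A_52_P525107, last 30 bases: tttttaccttTGACCAACTGAACGTGACCA
Col1a1, probe A_55_P2118520, first 30 bases: TGACCAACTGAACGTGACCAaaaaccaaaa
The overlapping probe A_52_P525107 of Col1a1 gave -2.002 ± 0.38. The third probe of Col1a1, A_66_P101466, lies 1013 bases further along the strand and shares no base with them. It gave -1.50, -1.71 and -0.63 in sEV livers, against 2.13, 1.08 and 1.19 in Control livers, a log2 fold change of -2.74 ± 0.38 (limma over all 28760 kept probes, adjusted p = 0.00927, where 6.7% of probes fell). All probes of Col1a1 that were kept thus had sEV livers below Control livers.

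Col1a2, the partner chain, had signals of 1.96, 1.55 and 2.43 in sEV livers, against 4.07, 3.02 and 3.31 in Control livers. The order of the livers was the same as for Col1a1, with sEV 2 lowest and Control 1 highest, and the groups did not overlap. Means were 1.98 ± 0.44 in sEV livers and 3.47 ± 0.54 in Control livers (SD, n = 3 each), a log2 fold change of -1.49 ± 0.33, or 2.80-fold lower (limma, adjusted p = 0.0295). This call was the least steady of the 6 falls when 1 liver was left out: without Control 1 the fold change was -1.19 (adjusted p = 0.0669), without Control 3 -1.56 (0.0700), without sEV 1 -1.48 (0.0637) and without sEV 2 -1.27 (0.0745).

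Col3a1 encodes the single chain of type III collagen, which forms fine reticular fibres, often together with type I. Its signals were 1.49, 0.93 and 1.71 in sEV livers, against 3.78, 2.92 and 3.11 in Control livers. Again sEV 2 was lowest and Control 1 highest, with more than a unit of log2 between the groups. The mean was 1.38 ± 0.40 in sEV livers and 3.27 ± 0.45 in Control livers (SD, n = 3 each), a log2 fold change of -1.89 ± 0.29, or 3.71-fold lower (limma, adjusted p = 0.0112).

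Type V collagen is a minor component that nucleates type I fibrils and sets their width, and the chains of its common form are encoded by Col5a1 and Col5a2. Col5a1 signals were 0.09, -0.85 and -0.39 in sEV livers, against 1.84, 1.34 and 1.12 in Control livers. The groups did not overlap, and Control 1 was the highest liver. Means were -0.38 ± 0.47 in sEV livers and 1.44 ± 0.37 in Control livers (SD, n = 3 each), a log2 fold change of -1.81 ± 0.28, or 3.52-fold lower (limma, adjusted p = 0.0123).

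Col5a2 was dim on every array. Its signals of -5.59, -6.48 and -5.52 in sEV livers were not well above background, and those of -3.88, -4.16 and -4.42 in Control livers were. It entered the tests only through its Control livers, so the size of its fall is a bound of at least 1.05-fold (limma on the measured values, adjusted p = 0.0145). The bound sets the Control mean against each sEV array's lowest signal called well above background. After normexp background correction its log2 fold change was -0.16 (adjusted p = 0.184). Without Col5a2, 5 of the other 25 collagens tested fell (20%) and the median stayed at -0.55.

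Col5a3 encodes another type V chain, known from a rarer form of the trimer. Its signals were 0.35, 0.48 and 0.52 in sEV livers, against -0.05, -0.69 and -0.16 in Control livers. Here the sEV livers lay above all Control livers, and they differed little among themselves. Means were 0.45 ± 0.09 in sEV livers and -0.30 ± 0.34 in Control livers (SD, n = 3 each), a log2 fold change of 0.75 ± 0.18, or 1.68-fold higher (limma, adjusted p = 0.0360). The adjusted p of Col5a3 went past 0.05 without Control 1 (0.0520), Control 3 (0.0725), sEV 1 (0.0596), sEV 2 (0.0929) or sEV 3 (0.0987), so this call needed all of those livers. The chains of type V collagen therefore did not all move one way in these arrays.

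**Figure D2:**
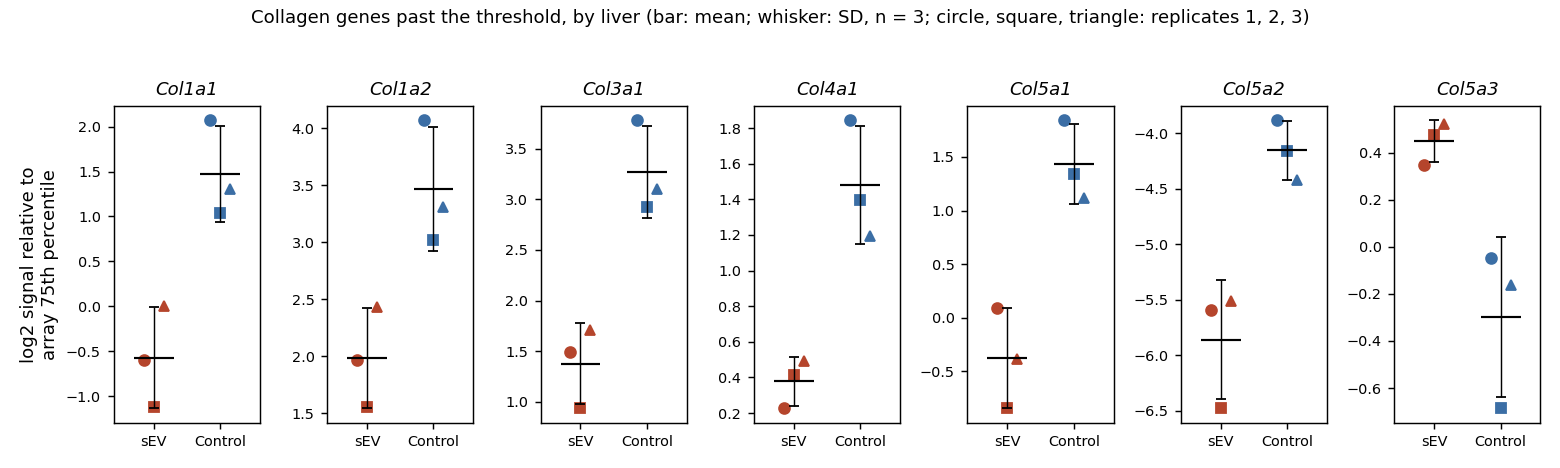
Log2 signal relative to the array's 75th percentile (y axis) in each liver for the 7 collagen genes that passed the test, sEV livers left of Control livers in each panel, with 1 point per liver and a bar at the group mean. No sEV liver overlaps a Control liver in any panel, which passing the test itself favours. The sEV livers are above Control livers in the Col5a3 panel only, and Control 1 is the highest Control liver in each panel.

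The stretches of genome just upstream of these genes were compared to show what the falling genes and Col5a3 do and do not share. RefSeq (GRCm38.p6) windows of 250 bases before the annotated start were at hand for 20 of the 26 tested collagens, in 22 windows, since Col6a2 and Col18a1 each had 2. Capitals mark short motifs found on either strand. The first is CCAAT, the second, known as a GC box, is GGGCGG, which reads CCGCCC on the other strand, and the TATA motif was searched as TATAAA. None of them contains another. The windows shown are those of the called fibrillar genes with an entry in the table, which Col1a1 and Col5a2 were not among. They are Col1a2 at chr6:4505368-4505617 (plus strand), Col3a1 at chr1:45311288-45311537 (plus), Col5a1 at chr2:27886175-27886424 (plus) and Col5a3 at chr9:20815068-20815317 (minus), and each is read 5′ to 3′.
Col1a2: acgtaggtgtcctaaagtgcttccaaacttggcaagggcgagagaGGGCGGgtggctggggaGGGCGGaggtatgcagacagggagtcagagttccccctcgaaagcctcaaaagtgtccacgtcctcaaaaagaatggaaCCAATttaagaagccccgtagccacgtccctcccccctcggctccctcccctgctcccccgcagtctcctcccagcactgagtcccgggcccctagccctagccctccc
Col3a1: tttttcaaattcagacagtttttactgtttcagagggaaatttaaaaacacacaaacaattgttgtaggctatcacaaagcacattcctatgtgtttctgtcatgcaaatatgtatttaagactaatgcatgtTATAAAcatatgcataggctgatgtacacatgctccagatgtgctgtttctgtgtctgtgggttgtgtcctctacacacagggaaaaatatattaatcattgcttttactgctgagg
Col5a1: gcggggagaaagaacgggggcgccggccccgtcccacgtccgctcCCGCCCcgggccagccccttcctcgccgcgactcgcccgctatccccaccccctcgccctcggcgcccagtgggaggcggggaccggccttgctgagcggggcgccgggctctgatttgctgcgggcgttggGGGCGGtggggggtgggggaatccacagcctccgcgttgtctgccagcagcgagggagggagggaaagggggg
Col5a3: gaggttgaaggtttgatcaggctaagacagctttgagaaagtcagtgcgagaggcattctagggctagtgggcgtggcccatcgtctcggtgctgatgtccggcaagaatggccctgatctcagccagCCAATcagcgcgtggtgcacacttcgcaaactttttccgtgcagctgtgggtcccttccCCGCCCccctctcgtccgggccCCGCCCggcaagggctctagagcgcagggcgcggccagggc
No motif was held by all 3 windows shown of genes that fell. The Col1a2 window held CCAAT 1 time and GGGCGG 2 times, the Col5a1 window held GGGCGG on each strand, and the Col3a1 window held TATAAA and neither of the others. Col3a1 also had the lowest G and C content, 35.2%, against 62% for Col1a2 and 76.4% for Col5a1. The Col5a3 window, of a gene that rose, held CCAAT 1 time and GGGCGG 2 times on the other strand, the same motifs as Col1a2. Over all 32851 windows of this length in the table, 33.8% held CCAAT, 32.7% GGGCGG and 12.4% TATAAA, and of the 22 collagen windows 9, 14 and 3 held them. These are matches of letters and say nothing of a factor's binding.

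Of the other fibrillar genes, neither passed. Col2a1, the cartilage collagen gene, had -2.39, -6.37 and -5.45 in sEV livers, against -2.97, -4.08 and -3.92 in Control livers. Only 1 of the 3 sEV livers was well above background, and that liver, sEV 1, was above all Control livers while the others were below. The log2 fold change was -1.08 ± 0.99 (limma, adjusted p = 0.488), it passed at -2.25 without sEV 1 (0.0313), and it turned to 1.27 with slide row as a block. Col27a1, a fibrillar chain gene known from cartilage, had -3.43, -3.57 and -3.38 in sEV livers, against -3.08, -4.43 and -3.88 in Control livers. The Control values spanned the sEV values (0.33 ± 0.32, adjusted p = 0.504).

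Among basement membrane collagens, 1 of the 4 tested fell and 3 did not pass. Their median log2 fold change was -0.79, or -1.03 over the 3 type IV chains alone. With no filter on dim probes the median over all 8 genes was -0.18, where that of all genes on the array was 0.195. Col4a1 and Col4a2 encode the chains of the common type IV trimer. Col4a1 signals were 0.23, 0.42 and 0.49 in sEV livers, against 1.84, 1.39 and 1.196 in Control livers. The sEV livers were close together and all below Control livers, of which Control 1 was highest. Means were 0.38 ± 0.14 in sEV livers and 1.48 ± 0.33 in Control livers (SD, n = 3 each), a log2 fold change of -1.10 ± 0.18, or 2.14-fold lower (limma, adjusted p = 0.0138).

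Col4a2 had signals of 0.63, 1.09 and 0.94 in sEV livers, against 1.67, 1.41 and 1.22 in Control livers. These groups also did not overlap, but the difference, -0.55 ± 0.16, did not pass (limma, adjusted p = 0.0707). It passed under median scaling (-0.60, adjusted p = 0.0463), with a mean-variance trend in limma (0.0399) and after normexp correction (0.0290). In the RefSeq table the annotated starts of Col4a1 and Col4a2 lie 21 bases apart on opposite strands of chromosome 8. Whether the difference of Col4a1 was larger than that of Col4a2 was not tested.

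Col4a5, a type IV chain gene on the X chromosome, had -2.45, -3.33 and -1.82 in sEV livers, against -1.65, -1.62 and -1.23 in Control livers. Each sEV liver was below each Control liver, with a wide spread among sEV livers, and the log2 fold change of -1.03 ± 0.37 did not pass (limma, adjusted p = 0.107). It passed without sEV 3, at -1.39 (0.0484). Col18a1, whose product releases endostatin when cleaved, was bright on every array, at 7.70, 7.58 and 7.53 in sEV livers, against 7.39, 7.47 and 7.41 in Control livers. Its sEV values were all above its Control values with this scaling, by 0.18 ± 0.08 (limma, adjusted p = 0.196), but the sign turned to -0.02 under quantile normalization and in the deposited value table.

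In the other types, 0 of 14 genes passed in limma, and their median log2 fold change was -0.44. This median was -0.22 without Control 1, -0.21 after normexp correction and -0.07 with no filter on dim probes. In that fit with no filter the median of all genes was 0.195. Type VI collagen forms beaded filaments around cells, and its tested genes gave the 4 largest negative values of these 14, with a median of -0.70. Col6a3 had -0.43, -0.94 and -0.28 in sEV livers, against 1.05, 0.06 and 0.30 in Control livers. The groups did not overlap, and the log2 fold change was -1.02 ± 0.29 (limma, adjusted p = 0.0628). It passed in 6 of the alternatives, for example at -1.07 under median scaling (adjusted p = 0.0411).

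A second probe of Col6a3, whose sequence crosses an exon junction in the stretch that encodes the triple helix (chr1:92689602-92690594, mm9, minus strand), gave another picture. Its letters are shown because glycine codons, in capitals, recur after each pair of other codons, as the collagen helix requires.
Col6a3, probe A_66_P127268: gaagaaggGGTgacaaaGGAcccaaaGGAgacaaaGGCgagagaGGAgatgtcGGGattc
Of the 91 collagen probes, 4 had this glycine register along their length, and this was the only one of them that was kept. It was dim, well above background on 4 arrays, with -4.71, -4.03 and -3.23 in sEV livers, against -3.63, -4.20 and -4.01 in Control livers. The groups overlapped, and the log2 fold change of this Col6a3 probe was -0.05 ± 0.37 (limma over all kept probes, adjusted p = 0.944).

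The remaining type VI genes overlapped between groups. Col6a1 had 0.70, -0.06 and 1.02 in sEV livers, against 1.81, 0.77 and 1.05 in Control livers (-0.65 ± 0.36, limma adjusted p = 0.257). Its neighbour Col6a2 had -2.83, -3.40 and -2.11 in sEV livers, against -1.46, -2.43 and -2.36 in Control livers (-0.70 ± 0.39, adjusted p = 0.266). In Col6a5 the values were -1.84, -2.72 and -1.79 in sEV livers, against -1.09, -2.03 and -1.11 in Control livers (-0.71 ± 0.35, adjusted p = 0.214). For each of these genes sEV 2 was the lowest sEV liver and Control 1 the highest Control liver.

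Fibril-associated collagens sit on the surface of fibrils and link them to their surroundings. Col12a1, of type XII, had -3.87, -4.11 and -4.14 in sEV livers, against -3.17, -3.74 and -3.57 in Control livers, without overlap (-0.55 ± 0.17, limma adjusted p = 0.0711). It passed under quantile normalization (-0.60, adjusted p = 0.0485), in the deposited value table (0.0486) and with array weights (0.0445). Col14a1, of type XIV, was at -1.08, -1.33 and -1.21 in sEV livers, against -0.36, -0.88 and -1.16 in Control livers (-0.40 ± 0.21, adjusted p = 0.224). Col16a1, of type XVI, was at -0.12, -0.42 and 0.17 in sEV livers, against 0.84, 0.06 and 0.19 in Control livers (-0.49 ± 0.25, adjusted p = 0.219). In both of these Control 1 stood highest and the groups overlapped.

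Col9a2 and Col20a1, also fibril-associated, had positive values without overlap that did not pass. Col9a2 had -3.39, -3.16 and -3.07 in sEV livers, against -3.44, -3.40 and -3.42 in Control livers (0.21 ± 0.10, limma adjusted p = 0.200). Col20a1 had -0.71, -0.87 and -0.48 in sEV livers, against -1.002, -1.04 and -0.88 in Control livers (0.29 ± 0.12, adjusted p = 0.153). Of the network-forming type VIII, Col8a1 had -1.57, -1.91 and -1.65 in sEV livers, against -0.94, -1.32 and -1.45 in Control livers, also without overlap (-0.47 ± 0.16, adjusted p = 0.0966).

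The last 4 genes gave small values that did not pass. Col7a1, the anchoring fibril chain gene, had a log2 fold change of 0.00 ± 0.10, and the transmembrane collagen genes Col13a1 and Col17a1 had 0.11 ± 0.27 and 0.03 ± 0.14. Signs of Col7a1 and Col17a1 turned under median scaling, to -0.05 and -0.02, and that of Col13a1 turned to -0.19 with slide row as a block. Col26a1, of type XXVI, had 0.23 ± 0.14 (limma, adjusted p = 0.293). Counting all classes, groups did not overlap for 15 of the 26 collagens tested, 11 lower and 4 higher in sEV livers. Over all genes tested 40.8% did not overlap, 18.6% lower and 22.2% higher. Whether the classes differed from each other was not tested.

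Some livers were often at the extremes of their group. Among sEV livers, sEV 2 was lowest for 17 of the 26 collagens and sEV 3 highest for 16, where these shares over all genes tested were 29.996% and 31.9%. Exceptions among the called genes were Col4a1 and Col5a3, with sEV 1 lowest, and Col5a1, with sEV 1 highest. Among Control livers, Control 1 was highest for 19 of the 26 collagens, against 27.3% of all genes. It was also highest for 7 of the 7 called genes. Relative to the Control mean, the median fibrillar gene was at -1.39, -2.30 and -1.42 in sEV livers 1 to 3, and at 0.56, -0.41 and -0.16 in Control livers 1 to 3. For the basement membrane genes these medians were -0.88, -0.70 and -0.41 in sEV livers and 0.10, -0.05 and -0.11 in Control livers. For the other types they were -0.30, -0.57 and -0.13 in sEV livers and 0.31, -0.08 and -0.12 in Control livers. Without Control 1, 4 of the 6 falls passed (Col1a1, Col3a1, Col4a1 and Col5a1), with log2 fold changes of -1.75 for Col1a1, -1.64 for Col3a1, -0.92 for Col4a1 and -1.61 for Col5a1.

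**Figure D3:**
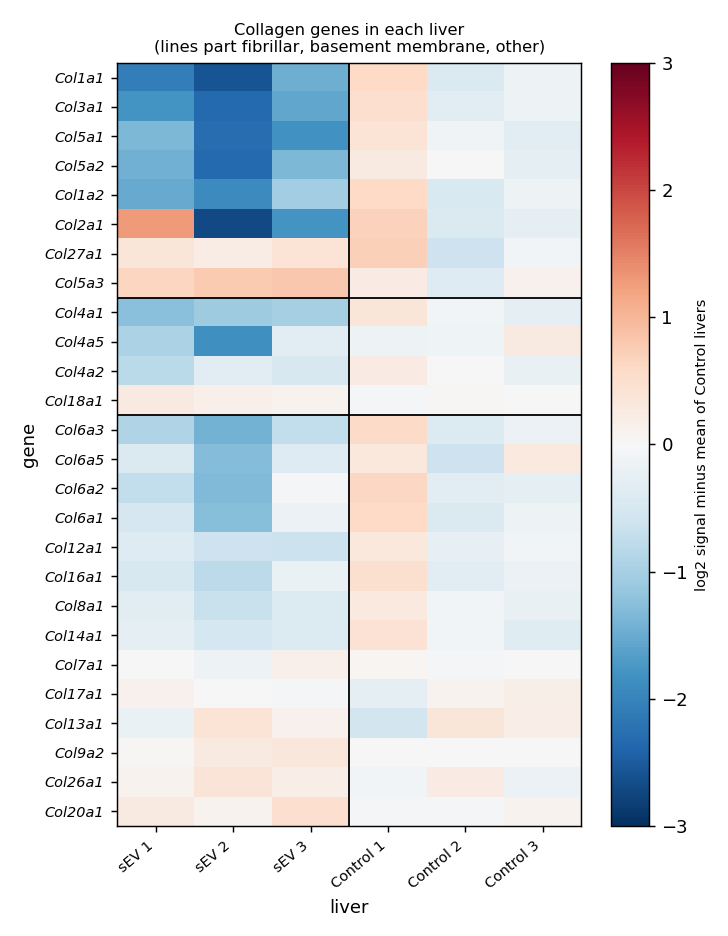
Signal of each tested collagen gene minus its Control mean (log2, colour) in each liver, sEV livers left of Control livers, genes grouped by class from top to bottom. The fibrillar genes that fell are blue in each sEV column, and Control 1 is the reddest Control column for 19 of the 26 genes.

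Position on the slide was partly shared with the groups. All arrays were on 1 slide, with the Control livers and sEV 1 in row 1 and sEV 2 and sEV 3 in row 2. When slide row was made a block, 0 collagens passed (limma), while 3.71% of all genes tested were called and 2.45% fell. At an unadjusted p under 0.05 in that limma fit were 7 of the 26 collagens, among them 6 of the 7 called genes. The blocked log2 fold changes were -2.07 ± 0.55 for Col1a1 (adjusted p = 0.114), -1.50 ± 0.50 for Col1a2 (0.166) and -1.78 ± 0.43 for Col3a1 (0.0942). They were -1.34 ± 0.32 for Col5a1 (0.0929), -1.25 ± 0.26 for Col4a1 (0.0681) and 0.65 ± 0.26 for Col5a3 (0.224). These 6 called genes kept their sign, and the blocked value of Col5a2 is not given because its probe was dim in sEV livers (adjusted p = 0.123). Within row 1, where sEV 1 stood alone against the 3 Control livers, the log2 fold changes were those of the blocked fit, and with a single sEV liver the spread comes from the Control livers and limma's prior. There 0 collagens passed, while 3.13% of all genes tested did and 2.23% fell, and 9 collagens had an unadjusted p under 0.05. The share of all genes at an unadjusted p under 0.05 was not computed for either fit. The unadjusted counts of collagens therefore cannot be set against it, and whether they are in excess was not tested. The part of row position in the result was not tested further.

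Genes that act on collagens in the secretory pathway moved both ways. Of 20 tested genes of chain modification and folding, 3 fell and 3 rose, while 14 did not pass. Their median log2 fold change was -0.09. Over all genes tested, 8.11% fell and 8.82% rose. Serpinh1, the gene of the collagen chaperone HSP47, had 0.06, 0.10 and 0.13 in sEV livers, against 1.25, 1.03 and 0.82 in Control livers. The sEV livers nearly coincided, below all Control livers (-0.94 ± 0.12, limma adjusted p = 0.00727), but with the mean of all kept probes the value was -0.31 and did not pass (adjusted p = 0.268). The prolyl isomerase genes Fkbp10 (-1.10 ± 0.19, adjusted p = 0.0173) and Fkbp14 (-0.35 ± 0.08, adjusted p = 0.0377) also fell. The Fkbp14 call was lost without Control 1, Control 2, Control 3, sEV 2 or sEV 3 (limma adjusted p 0.0787 to 0.110). Those that rose were Plod1, a lysyl hydroxylase gene (0.59 ± 0.10, adjusted p = 0.0136), Colgalt1, a galactosyltransferase gene (0.34 ± 0.08, adjusted p = 0.0322), and P4ha2, a prolyl hydroxylase subunit gene named after its value was seen (0.52 ± 0.13, adjusted p = 0.0399). With a liver left out 1 or 2 genes of this list rose, and Colgalt1 passed in none of these fits (adjusted p 0.0664 to 0.0940). With the mean of kept probes Plod1 did not pass (0.64, adjusted p = 0.253), and under median scaling 1 gene of this list rose.

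Outside the cell, the genes of procollagen trimming and cross-linking that passed all fell, 3 of 12 tested, where 8.11% of all genes fell. The 12 genes had a median of -0.23. Loxl2, a lysyl oxidase family gene, had -1.08, -1.30 and -0.60 in sEV livers, against 0.74, 0.28 and 0.17 in Control livers (-1.39 ± 0.23, limma adjusted p = 0.0138), and its mean over kept probes was -0.77 (adjusted p = 0.0226). Pcolce, which enhances C-propeptide removal, was at -0.90 ± 0.19 (adjusted p = 0.0261), and Adamts2, an N-propeptidase gene, at -1.17 ± 0.26 (adjusted p = 0.0311). Neither gene had an sEV liver as high as its lowest Control liver. The Pcolce call was lost without Control 2, sEV 1, sEV 2 or sEV 3 (limma adjusted p 0.0551 to 0.0740). The Adamts2 call was lost without Control 1, Control 2, Control 3, sEV 1 or sEV 2 (limma adjusted p 0.0547 to 0.0840). Without Control 2, sEV 1 or sEV 2, 1 gene of this list fell.

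Of 13 matrix partners that bind collagen or its fibrils, 4 fell, against 8.11% of all genes tested, and 9 did not pass. Their median was -0.22. Sparc, whose glycoprotein binds collagen, had 5.11, 5.36 and 5.27 in sEV livers, against 6.997, 6.95 and 6.61 in Control livers. Postn, the periostin gene, had -1.23, -1.41 and -1.45 in sEV livers, against 0.43, 0.04 and -0.10 in Control livers. Both were separated by more than the spread of either group (Sparc -1.61 ± 0.13, limma adjusted p = 0.00176, and Postn -1.49 ± 0.15, adjusted p = 0.00395). These also passed with slide row as a block, at -1.75 (adjusted p = 0.0157) for Sparc and -1.35 (0.0426) for Postn. Lum, the lumican gene, fell by 0.99 ± 0.23 (limma, adjusted p = 0.0338). The Lum call was lost whichever liver was left out (limma adjusted p 0.0537 to 0.0939). Thbs2, a thrombospondin gene, was well above background in 1 of 3 sEV livers and fell by 1.18 ± 0.21 (adjusted p = 0.0189). Without Control 3 or sEV 2, 2 genes of this list fell.

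Among 13 genes of collagen breakdown and its inhibitors, 2 fell, 1 rose and 10 did not pass. Their median was 0.02. Over all genes tested, 16.9% were called, with 8.11% lower and 8.82% higher. Ctsk, the gene of the collagen-degrading cathepsin K, fell by 1.12 ± 0.18 (limma, adjusted p = 0.0131), and Mmp2, a gelatinase gene, by 1.08 ± 0.28 (adjusted p = 0.0448). Ctsl, a lysosomal cathepsin gene, rose by 0.57 ± 0.11 (adjusted p = 0.0197). The Mmp2 call was lost without Control 1, Control 3, sEV 1, sEV 2 or sEV 3 (adjusted p 0.0730 to 0.114), and the Ctsl call without Control 1, Control 3 or sEV 3 (0.0589 to 0.0644). Of 12 collagen receptor genes, 2 were called, about the 16.9% called among all genes tested. Lair1, an inhibitory leukocyte receptor gene, rose by 0.82 ± 0.14 (adjusted p = 0.0173), Stab1, a scavenger receptor gene, fell by 0.53 ± 0.13 (adjusted p = 0.0373). The Stab1 call was lost without Control 1, Control 2, Control 3, sEV 1 or sEV 2 (adjusted p 0.0719 to 0.103).

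**Figure D4:**
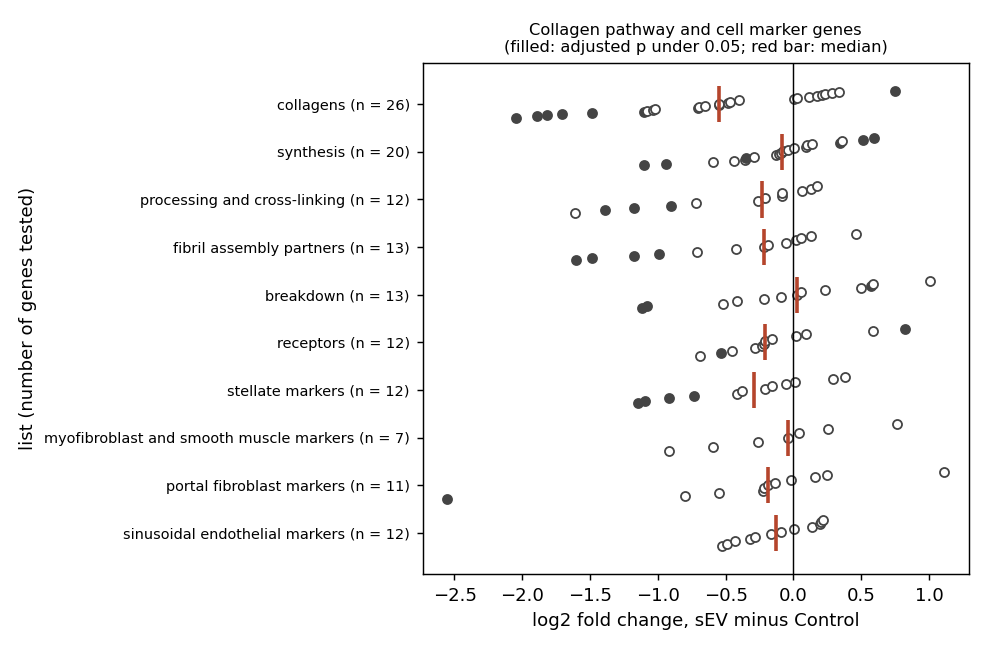
Log2 fold change (x axis, sEV minus Control) of the tested collagens, the genes of the collagen pathway lists and the markers of matrix-producing and sinusoidal endothelial cells, 1 point per gene, filled where the adjusted p was under 0.05, with a red bar at each list's median. Col5a2 and Eln are drawn at their measured values but have only a bound. Stellate markers that passed lie on the negative side, the synthesis, breakdown and receptor genes that passed lie on both sides, and the sinusoidal endothelial row has no filled point.

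Stellate cells are a known source of matrix. Of 12 stellate cell markers tested, 4 fell, against 8.11% of all genes tested, and 8 did not pass. Their median was -0.29. Their summed linear signal, in multiples of the 75th percentile, was 53.8 to 66.4 in sEV livers, against 67.3 to 83.3 in Control livers, without overlap. Those that fell included Nes, the nestin gene (-1.15 ± 0.18), Lrat, a retinol storage enzyme gene (-1.10 ± 0.17), and Ngfr, a neurotrophin receptor gene (-0.73 ± 0.17), with limma adjusted p values of 0.0135 for Nes, 0.0115 for Lrat and 0.0333 for Ngfr. Among the markers that did not pass, values ran from -0.41 ± 0.19 for Reln to 0.38 ± 0.21 for Hand2. Ngfr, Reln and Hand2 were named after their values were seen. Gfap was not measured above background on enough arrays to be tested. The part of these cells in the collagen result was not tested.

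Markers of other structural cells are given by the same counts, with no test between lists. Of 7 myofibroblast and smooth muscle markers, 0 passed in limma, and their summed signal was 12.04 to 24.4 in sEV livers, against 14.5 to 19.4 in Control livers. Acta2, the smooth muscle actin gene, named after its value was seen, was at -0.04 ± 0.17, and the extremes of this list, Myh11 (0.76 ± 0.60) and Cnn1 (-0.92 ± 1.55), varied widely between livers. Of 11 portal fibroblast markers, 1 fell, where 8.11% of all genes tested did. This was Eln, the elastin gene, which was not well above background in any sEV liver. Eln entered the tests only through its Control livers, so its call is tied to the filter. The size of its fall is a bound of at least 4.45-fold (limma on the measured values, adjusted p = 0.00718). The summed signal of that list was 18.9 to 35.4 in sEV livers, against 24.5 to 30.6 in Control livers. Sinusoidal endothelial markers gave 0 calls of 12, with a summed signal of 49.7 to 60.9 in sEV livers, against 49.3 to 69.7 in Control livers. Mesothelial markers gave 0 calls of 7.

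All 8 hepatocyte markers on the array could be tested, as the label liver requires. Of these, Cps1, Pck1 and Ass1 rose by 0.79 to 0.84 and 5 did not pass, and the summed signal was 3538 to 4115 in sEV livers, against 3018 to 3304 in Control livers. Of 6 Kupffer cell markers, Marco, a scavenger receptor gene, rose by 1.21 ± 0.28, Timd4 by 0.60 ± 0.14 and Vsig4 by 0.59 ± 0.11 (limma, adjusted p = 0.0356, 0.0319 and 0.0203), and 3 did not pass. Of markers of adipose tissue, pancreas and muscle, 6 of 8 were not measured above background on enough arrays, and Cela1, an elastase gene, fell by 1.24 ± 0.12 (adjusted p = 0.00342). With slide row as a block the Kupffer cell calls were lost (limma adjusted p = 0.242 for Marco, 0.157 for Timd4 and 0.135 for Vsig4). Those of Ass1 (0.0737) and Lrat (0.0995) were also lost, while Cps1, Pck1, Nes and Cela1 passed. Eln passed on its measured values, with its call tied to the filter as above. Each Kupffer cell call was also lost without Control 3, sEV 2 or sEV 3. How far these values bear on the collagen values was not tested. Beside the rises in the hepatocyte and Kupffer cell lists, 8.82% of all genes tested rose.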

How the data were processed

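Liver RNA was hybridised to 6 Agilent 1-colour arrays, 3 per group. Scanner files were made with Agilent Feature Extraction 10.7.1.1, as the submitters' processing notes state. They give each spot's intensity, which the authors deposited with the background subtracted, per the file headers. The authors also deposited a value table in log2 units, with a median of 4.50 in each column, and correlated across probes with log2 of each array's signal (r at least 0.9995). Its making is not given in sources used here, and it served as an alternative. Each array had 62976 spots, of which 59305 were not controls, 0 of them saturated. The share well above background was 49.9% to 53.3% on sEV arrays and 50.9% to 54.7% on Control arrays, and the number of arrays limits the precision.

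Each array's processed signals were set on a log2 scale and its 75th percentile was subtracted. Between 91 and 171 spots per array carried outlier flags and were dropped. Repeated spots were averaged, a probe had to be well above background on 3 or more of 6 arrays, and the brightest probe stood for its gene, leaving 19446 genes. The test was limma 3.58.1 (R 4.3.3) with lmFit and eBayes and no covariate. P values were adjusted by Benjamini-Hochberg over the genes, with 0.05 as threshold, and a log2 fold change is given ± its standard error. With 3 livers against 3, the smallest exact p is 0.1. P-values measure the spread between these livers.

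Every collagen tested is named. The pathway lists give up to 5 members, and the marker lists up to 3, in order of the moderated t, from the genes that passed, or else the highest and lowest member. Some list members are not reported here. The members and lists were chosen with earlier results of these data known. Accessions of 67 of 68 RefSeq-annotated collagen probes matched the RefSeq gene table. Probe coordinates are mm9 per the file headers. Promoter windows are RefSeq on GRCm38.p6.

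On data simulated for sEV against Control over 19446 genes (10 runs, 200 changed genes each), the share of genes called was 16.8% for a 1.5-fold change, 67.2% for 2-fold, 92.6% for 4-fold and 97.6% for 8-fold, and 0.0374% without a change. Alternatives changed the background correction, scaling, filter, probe choice, variance model, array weights, value table, replicate block and slide row, and left out each array in turn. Fits of each further probe were chosen after seeing the data. Python 3.11.15 and matplotlib 3.10.9 served for figures.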

Additional observations from a re-analysis of the deposited data

How the results depend on the processing

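Of the 7 collagen calls (6 lower, 1 higher), the count was 2 with no filter on dim probes (2 lower, 0 higher), 0 with slide row as a block and 0 within slide row 1 (each 0 lower and 0 higher), and it ranged from 4 to 7 when a liver was left out (4 to 7 lower and 0 to 1 higher, with 4 without Control 1). Col5a3 did not pass without Control 1, Control 3, sEV 1, sEV 2 or sEV 3. The median log2 fold change of -0.55 was -0.28 with no filter, which brings in genes at background, and -0.30 after normexp correction, and it ranged from -0.66 to -0.36 with a liver left out. The median of all genes was 0.195 with no filter and 0.053 after normexp correction, against 0.022 in the main comparison. Fibrillar falls (5) numbered 2 with no filter and 3 without Control 1, and their median of -1.60 was -0.80 after normexp. The basement membrane median of -0.79 was -0.55 after normexp. Basement membrane falls (1) numbered 2 under median scaling, with the variance trend, after normexp and without sEV 3, and 0 with no filter, and falls of other types (0) numbered 1 to 3 in 8 of the alternatives, with 3 under the replicate block. Array weights, robust and trended variances, quantile normalization, the value table, median scaling and the mean of all kept probes left the same 7 genes called in the same direction.

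Over all genes, 3293 passed, against 801 with no filter, 721 with the row block, 608 within row 1 and 1329 to 2761 with a liver left out. Slide row left 0 calls in the synthesis, processing, breakdown and receptor lists and 2 among assembly partners. With no filter, 1 synthesis, 1 processing and 2 assembly genes fell and 0 breakdown genes did. Rises numbered 3 for breakdown with array weights and after normexp, and 1 for synthesis with the mean of kept probes.

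Livers of the same number deviated from their group means with correlations of 0.02, 0.16 and 0.02, so the numbers were not taken as pairs. With the replicate block 2176 genes and 6 of the 7 collagens passed, and 0 were higher, since Col5a3 (0.75) was lost (adjusted p = 0.0639).

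Signs turned for Col2a1 (0.014 after normexp, 1.27 with the row block and within row 1), Col7a1 (-0.0028 with array weights, -0.019 in the value table and under quantile normalization, -0.049 under median scaling), Col13a1 (-0.19 with the row block and within row 1), Col17a1 (-0.067 with array weights, -0.024 under median scaling), Col18a1 (-0.023 under quantile normalization and in the value table), Msln (0.56 with array weights) and Upk3b (-0.13 with the row block and within row 1). With a liver left out the values ranged from -0.065 to 0.076 for Col7a1, -0.17 to 0.30 for Col13a1, -0.11 to 0.11 for Col17a1, -2.58 to 0.050 for Cnn1, -0.84 to 0.45 for Msln and -0.37 to 1.44 for Upk3b. None of these genes passed the test in the main comparison, and the cause was not tested. Signals near background, as for Col5a2 and Col2a1, limit what their size can show.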
